A study of Mus musculus with 2 samples.

Results

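Mir320, Mir484, Mir877, Mir1224, Mir702 and Mir1981 are miRNA genes known for routes of biogenesis that bypass Drosha. They were taken by gene symbol in GENCODE M21, and all 6 were found among the 2202 miRNA genes of each deposited table. Small RNA came from adult wild-type mouse hippocampus (C57BL/6, strain B6NCrl, male by the sample description, 6 months of age). It was sequenced as 2 libraries numbered as biological replicates 1 and 2. No treatment or genotype was compared, so the data describe levels in 1 tissue and the spread between its libraries. The labels call the tissue a layer of hippocampus without naming the layer. Both libraries carry 1 donor identifier and separate biosample identifiers, and nothing says that they came from separate animals, so tests between them measure a spread that may be technical.

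Most miRNA precursors are released from a long primary transcript by the nuclear nuclease Drosha, with its partner Dgcr8, and are then diced by Dicer in the cytoplasm. A mirtron skips the Drosha step. It is a short intron that the spliceosome cuts out and that folds, once debranched, into a hairpin that Dicer accepts, so its ends are splice sites. Mir877, Mir1224, Mir702 and Mir1981 are classed as mirtrons. Mir320 and Mir484 are classed as hairpins that RNA polymerase II transcribes directly, whose 5′ end carries the cap of the transcript in place of a Drosha cut. Wild-type libraries alone do not test dependence on Drosha, and the classes stand here as background.

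RefSeq sequences (GRCm38.p6) matched 5 of the 6 genes. The hairpins of the mirtrons are shown whole because their ends bear on the class, 5′ to 3′ and with the first 2 and last 2 bases of the host intron in capitals where the hairpin holds them.
Mir877: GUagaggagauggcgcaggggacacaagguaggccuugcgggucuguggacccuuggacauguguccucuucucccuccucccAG
Mir1224: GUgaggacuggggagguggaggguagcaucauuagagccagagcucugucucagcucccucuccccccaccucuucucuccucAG
Mir1981: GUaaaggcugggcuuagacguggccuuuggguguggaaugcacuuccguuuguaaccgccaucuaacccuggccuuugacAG
Mir702: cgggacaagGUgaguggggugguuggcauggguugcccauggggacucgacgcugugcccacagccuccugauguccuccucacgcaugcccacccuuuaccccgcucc

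The mature arms are the parts that act as guides, and their seeds (bases 2 to 8, which pair with target mRNAs) are in capitals.
miR-877-5p: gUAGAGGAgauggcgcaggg
miR-877-3p: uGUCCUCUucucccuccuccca
miR-1224-5p: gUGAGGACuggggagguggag
miR-1224-3p: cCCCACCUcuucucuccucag
miR-1981-5p: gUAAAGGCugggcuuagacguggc
miR-1981-3p: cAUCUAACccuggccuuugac
miR-702-5p: gUGAGUGGggugguuggcaug
miR-702-3p: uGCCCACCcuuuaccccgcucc
miR-484: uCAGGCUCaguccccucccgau

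The mirtron label was first checked against the annotated introns. Mir877 (ENSMUSG00000077931.1, chromosome 17, 35960730 to 35960814, minus strand) filled an intron of 85 bases in Abcf1, which encodes an ATP-binding protein of translation initiation, and both hairpin ends were the intron ends. It was intron 12 of 22 in the annotated coding transcript. Mir1224 (ENSMUSG00000080669.1, chromosome 16, 20604452 to 20604536, plus strand) likewise equalled an intron of 85 bases in Vwa5b2, the last of its 22. Mir1981 (ENSMUSG00000088559.1, chromosome 1, 184822407 to 184822488, minus strand) equalled an intron of 82 bases in Marc2, a gene of a mitochondrial reductase, where it was intron 5 of 7. Mir702 (ENSMUSG00000076240.1, chromosome 5, 136991433 to 136991541, plus strand) did not meet the rule of 5 bases. Its annotated hairpin began 9 bases before intron 13 of Plod3, which encodes a lysyl hydroxylase of collagen, inside the coding exon, and ended 2 bases before the end of that intron of 102 bases. So 3 of the 4 filled an intron, and the fourth was offset by 9 bases at 1 end. The 4 introns, of 82 to 102 bases, were short: 5.00% of 284419 distinct annotated introns were no longer than 102 bases, and the median intron had 1484 bases. Over all 2202 miRNA genes, 23 hairpins filled an intron.

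**Figure D1:**
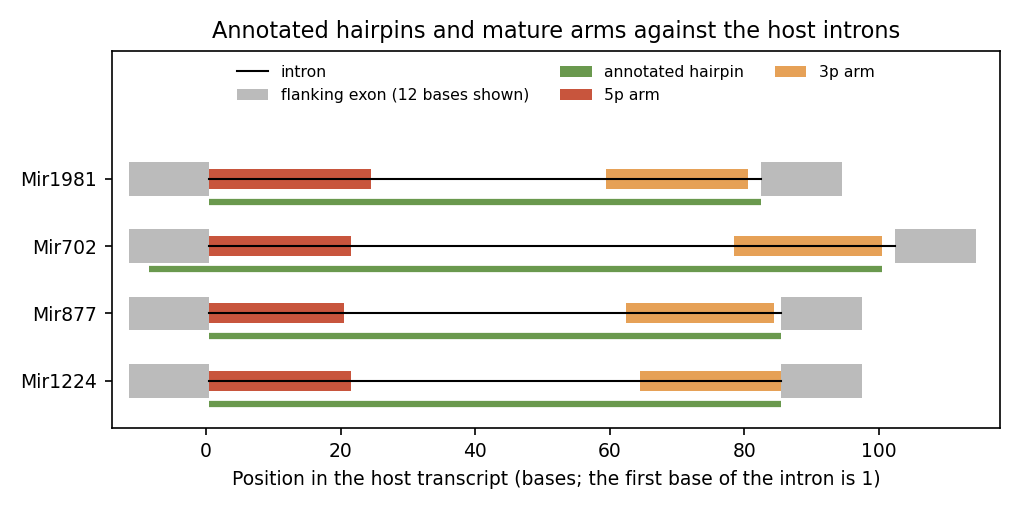
The 4 mirtron hairpins, drawn to scale along the host transcript in bases from the first base of the intron, with introns as black lines, flanking exons in grey, annotated hairpins in green and mature arms in red (5p) and orange (3p). Each 5p arm begins at base 1 of its intron, and the Mir702 hairpin alone of these 4 reaches into the exon.

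The mature arms were then placed on the introns. All 4 mirtron 5p arms began at the first base of the intron, including miR-702-5p, whose annotated hairpin starts upstream in the exon. Their first base was therefore the G of the splice donor, which began 13.9% of the 727 RefSeq 5p arms, against 42.8% that began with U. The 3p arms ended 0 (miR-1224-3p), 1 (miR-877-3p) or 2 bases (miR-1981-3p and miR-702-3p) before the end of the intron. These arms lie over the pyrimidine-rich tract that precedes a splice acceptor, and C and U made up 90.9% of miR-877-3p, 85.7% of miR-1224-3p, 81.8% of miR-702-3p and 66.7% of miR-1981-3p. The median over 731 RefSeq 3p arms was 59.1%, and a lower content was found in 99.7%, 97.9%, 95.8% and 66.1% of them, in the same order. By the same count the 5p arms of Mir1224 and Mir877 were poor in pyrimidines, with 19.0% and 20.0%. None of the 9 mature sequences stood in another of the 1005 RefSeq hairpins, and copies elsewhere in the genome were not searched.

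The seeds were compared over all 1738 RefSeq mature sequences. Of the 9 seeds, 8 stood in no other gene. The seed of miR-702-5p, UGAGUGG, was shared with miR-3102-5p, and Mir3102 is another hairpin that fills an intron (chromosome 7, 100882306 to 100882409, minus strand, in Arhgef17). Its arm is shown for comparison.
miR-3102-5p: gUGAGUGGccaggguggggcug

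The predicted folds differed at the ends. The fold of lowest free energy left 11 bases unpaired at the 5′ end of the Mir702 hairpin, more than the 9 bases that lie in the exon, and 1 base at its 3′ end. For Mir1981 it left 0 bases at the 5′ end and 2 at the 3′ end, for Mir1224 1 and 1, for Mir877 3 and 4, and for Mir484 2 and 2. GC content was 65.1% for Mir702, 61.2% for Mir877, 60.0% for Mir1224, 58.2% for Mir484 and 53.7% for Mir1981, all above the median of 51.7% over the 1005 hairpins. Folding energy per base was −0.50 kcal/mol for Mir1224, lower than in 84.6% of hairpins, and −0.37 kcal/mol for both Mir484 and Mir1981, lower than in 33.9% and 34.4%.

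The capped hairpins both stood head to head with a protein-coding gene. Mir320 (ENSMUSG00000065528.1, chromosome 14, 70443510 to 70443591, plus strand) began 63 bases from the annotated start of Polr3d, a subunit gene of RNA polymerase III transcribed the other way, and overlapped no other gene. Mir484 (ENSMUSG00000070074.1, chromosome 16, 14159626 to 14159692, plus strand) began 359 bases from the nearest upstream start of Marf1, a regulator of RNA stability in oocytes, also transcribed the other way. Marf1 is also annotated across part or all of the hairpin on the opposite strand, where its exon sequence covers 19 of the 67 bases. The count on the opposite strand was 0 for each of the 6 genes in both libraries.

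The first and second libraries (replicates 1 and 2) held 11106392 and 12627039 reads, and 4247092 and 5041568 of them fell on miRNA genes. CPM scales each library's counts to the reads that fell on miRNA genes. A miRNA read covers a whole small RNA, so CPM was not divided by the length of the hairpin, and the counts do not separate the 2 arms. Reads that aligned to more than 1 place (43.8% and 45.7% of all reads) are in no gene's count. The limit set by a count of 0 (3 counts) was 0.706 CPM for the first library and 0.595 CPM for the second, and such limits and all intervals cover counting error only. As a check of the tissue, 6 of 11 neuron markers reached 10 CPM in each library, with a sum of 46480.3 and 28706 CPM in replicates 1 and 2. Most rows of the neuron list are copies of multi-locus miRNAs and leave out reads shared between copies, so their sum does not measure neuron content. Lists of other cells were high too. The choroid plexus and ependyma list summed to 11342 and 3408 CPM and the vascular list to 8456 and 8769 CPM. Sums were 5817 and 8786 CPM for oligodendrocytes and 2926 and 2627 CPM for microglia and leukocytes. The red cell list had 1 of 3 and a sum of 18.8 and 23.8 CPM, and no matched marker of the 6 lists was at 0 in both libraries. In bulk tissue, fewer cells of a type and less RNA per cell cannot be told apart.

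Detection meant at least 10 CPM in each library, which 302 of the 2202 miRNA genes (13.7%) reached. All 6 genes reached it and stood above 100 CPM in each library. Their share of the counted reads was 0.604% for replicate 1 and 0.667% for replicate 2, with exact 95% intervals of 0.596 to 0.611% and 0.660 to 0.674%. The summed level was 6355 ± 451 CPM (SD, n = 2).

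The 2 capped hairpins came first. Mir320 had 11496 counts in replicate 1 and 15445 in replicate 2, or 2707 and 3064 CPM, with a mean of 2885 ± 252 CPM (SD, n = 2) and rank 52 of the 2202 genes. Mir484 had 10027 and 11472 counts, or 2361 and 2275 CPM, with a mean of 2318 ± 60.4 CPM and rank 57. The lower Mir320 value stood above the higher Mir484 value, and the ratio of Mir320 to Mir484 was 1.15 (exact 95% interval 1.12 to 1.18) in the first library and 1.35 (1.31 to 1.38) in the second. By counted reads, these levels lie among those of well-known brain miRNAs. The rows of Mir138-2 and Mir129-2, named next, leave out any reads that also aligned to another locus of the same miRNA. Such rows can fall short of the level of the mature miRNA. Next above Mir320 in mean level were Mir107 (2949 ± 1212 CPM) and Mir138-2 (2954 ± 146 CPM), the latter a neuronal miRNA that acts in dendrites, and next below it were Mir378a (2873 ± 232 CPM) and Mir485 (2531 ± 514 CPM). Next above Mir484 were Mir1249 (2376 ± 1023 CPM) and Mir129-2 (2486 ± 4.83 CPM), and next below it were Mir338 (2254 ± 111 CPM), an oligodendrocyte miRNA, and Mir137 (2098 ± 119 CPM), a neuronal one.

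The 4 mirtrons stood well below the capped hairpins. Mir1981 had 1570 and 1681 counts in replicates 1 and 2, or 370 and 333 CPM (mean 352 ± 25.6 CPM, SD, n = 2, rank 136). Mir702 had 850 and 1908 counts, or 200.1 and 378 CPM (mean 289 ± 126 CPM, rank 145). Mir877 had 968 and 1480 counts, or 228 and 294 CPM (mean 261 ± 46.4 CPM, rank 149). Mir1981 stood above Mir877 in both libraries, while the values of Mir702 overlapped with those of each. Mir1224 had 723 and 1659 counts, or 170 and 329 CPM (mean 249.6 ± 112 CPM, rank 154). Its values overlapped with those of Mir702 and Mir877 and lay below both values of Mir1981, although in replicate 2 the exact 95% interval of their count ratio ran from 0.922 to 1.06. In replicate 1 Mir1981 was the highest mirtron and Mir1224 the lowest, whereas in replicate 2 Mir702 was the highest and Mir877 the lowest. The step from Mir484 down to Mir1981 was the only wide one, 6.39-fold in replicate 1 and 6.82-fold in replicate 2. Of the 6 genes' counts, the capped hairpins held 84.0% (exact 95% interval 83.5 to 84.4%) in the first library and 80.0% (79.6 to 80.4%) in the second.

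**Figure D2:**
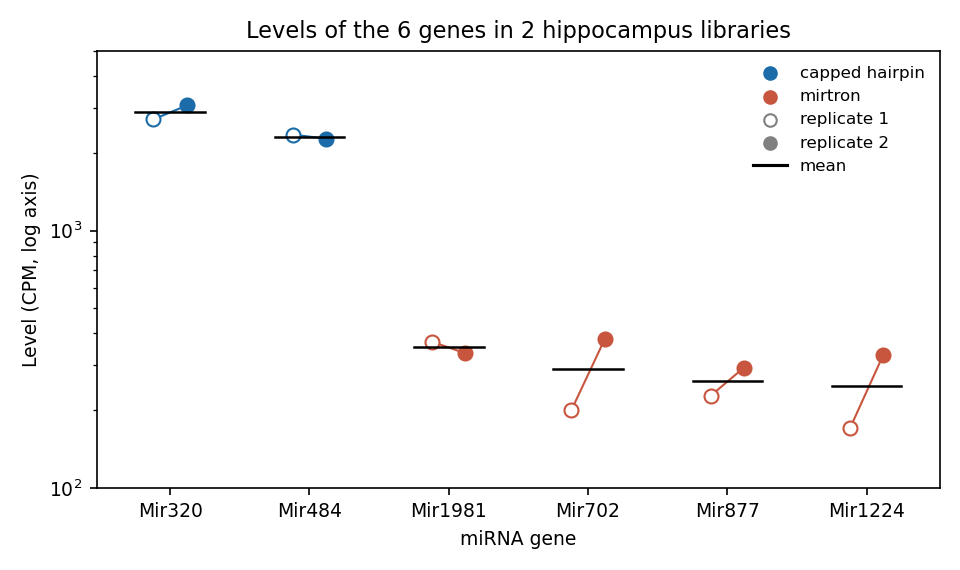
Levels of the 6 genes in CPM on a log axis, with replicate 1 as open points, replicate 2 as filled points and the mean of both as black bars. The capped hairpins (blue) sit between 2275 and 3064 CPM, and the mirtrons (red) sit between 170 and 378 CPM, where Mir702 and Mir1224 show the widest gaps between the libraries.

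The libraries were then compared gene by gene. Mir702 was 1.89-fold higher in replicate 2 (log2 ratio 0.92, exact 95% interval 0.80 to 1.04), and Mir1224 was 1.93-fold higher (log2 ratio 0.95, 0.82 to 1.08). Mir877 was 1.29-fold higher (log2 ratio 0.36, 0.25 to 0.48), while Mir1981 went the other way with a log2 ratio of −0.15 (−0.25 to −0.05). Mir320 had a log2 ratio of 0.18 (0.14 to 0.21) and Mir484 one of −0.05 (−0.09 to −0.01), which turned to 0.0091 when scaled to all reads. Of the 6 genes, 2 lay 1.5-fold or more apart, both higher in replicate 2, against a background of 39.7% of 522 tested genes that far apart in either direction and 24.1% that far above in replicate 2. Among the 196 genes with a mean of 100 CPM or more, where these 6 stand, 58 (29.6%) lay that far apart, 33 of them higher in replicate 2. A share of 2 in 6 is close to the 39.7% and the 29.6%. The 2 genes past the fold, Mir702 and Mir1224, are mirtrons. The mirtron Mir1981 stayed below it, with a log2 ratio smaller in size than that of Mir320. Under TMM scaling, an alternative to scaling by counted reads, the log2 ratio was −0.22 for Mir1981, 0.11 for Mir320 and −0.13 for Mir484. Of the 302 detected genes, 71.5% lay further apart than Mir320, 91.1% further apart than Mir484 and 74.2% further apart than Mir1981. The same figure was 48.7% for Mir877, 11.6% for Mir702 and 9.93% for Mir1224.

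By an exact two-sided binomial test, which compares the reads of 2 libraries and not conditions, all 6 genes passed after Benjamini-Hochberg adjustment over 522 genes, 4 as higher and 2 as lower in replicate 2. In that test 50.6% of the tested genes passed, and among the 196 genes with a mean of 100 CPM or more, where these 6 stand, 178 did. The adjusted exact binomial p ranged from 4.99e-52 for Mir1224 and 1.84e-56 for Mir702 to 0.00816 for Mir1981 and 0.0154 for Mir484. The median log2 ratio of the 4 mirtrons was 0.64, that of the 2 capped hairpins 0.06 and that of all 522 tested genes 0.09.

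Ratios between mirtrons within a library need no scaling. Mir1224 over Mir1981 was 0.461 (exact 95% interval 0.421 to 0.503) for replicate 1 and 0.987 (0.922 to 1.06) for replicate 2. Mir702 over Mir1981 was 0.541 (0.497 to 0.589) and 1.14 (1.06 to 1.21). Neither pair of intervals overlapped. These intervals cover counting error only, and 178 of the 196 genes with a mean of 100 CPM or more passed the binomial test above. The intervals of Mir320 over Mir484 (1.12 to 1.18 and 1.31 to 1.38) did not overlap either. How many other gene pairs would fail to overlap was not computed, so the lack of overlap is not particular to mirtrons. The intervals did not overlap either for Mir877 over Mir1981 (0.617 and 0.880) or for Mir1224 over Mir877 (0.747 and 1.12). Mir1224 over Mir702 was 0.851 (0.769 to 0.940) and 0.869 (0.814 to 0.929), with overlapping intervals. This follows from the near-equal log2 ratios of Mir1224 (0.95) and Mir702 (0.92) given above. All these ratios restate the same counts, so they are no separate evidence that the 2 genes vary together.

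**Figure D3:**
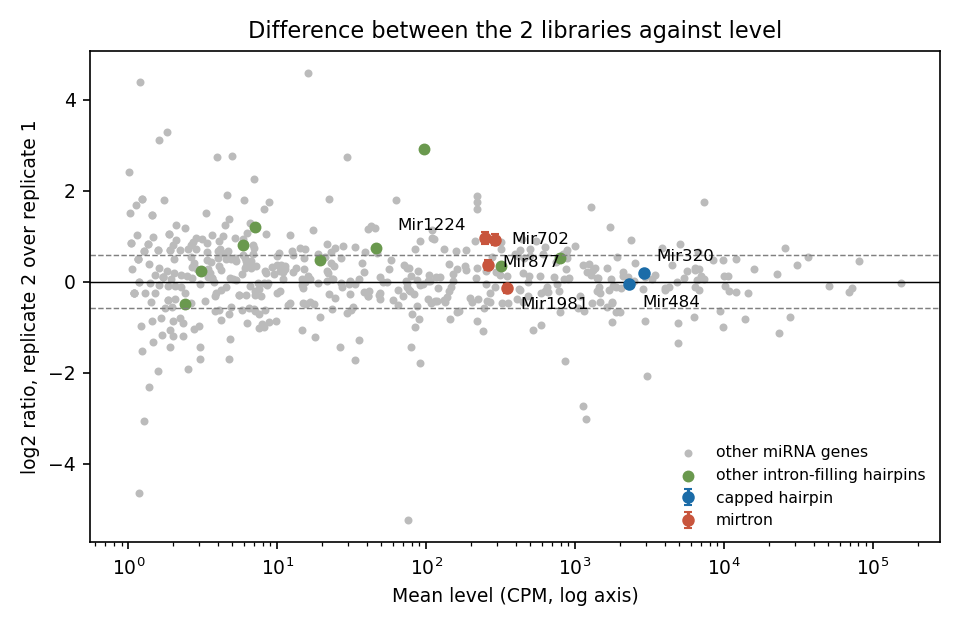
Log2 ratio of replicate 2 over replicate 1 against mean level in CPM (log axis) for the 522 tested genes, with error bars for exact 95% intervals of the 6 genes and dashed lines at 1.5-fold. Mir702 and Mir1224 lie above the upper line, the other 4 lie between the lines, and 8 of the 9 other intron-filling hairpins (green) lie above 0.

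Other measures moved between the libraries as well. Among 240 genes with a RefSeq hairpin and at least 200 counts in all, the 80 with the highest GC content had a median log2 ratio of 0.23 and the 80 with the lowest had −0.13. The choroid plexus and ependyma list, with 5 of 6 genes detected, stood at 11342 and 3408 CPM in replicates 1 and 2. The oligodendrocyte list, with 2 of 3 detected, stood at 5817 and 8786 CPM. The neuron list, with 6 of 11 detected and reads shared between copies left out, stood at 46480 and 28706 CPM. What part GC content or these markers had in the values of Mir702 and Mir1224 was not tested. The labels cite another adapter-trimming document for each library, which cannot be told apart from the replicate.

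The mirtrons were set beside the other hairpins that fill an intron. Apart from Mir877, Mir1224 and Mir1981 there were 20, of which 15 belong to the numbered series Mir6896 to Mir7093 of predicted mirtrons. Of the 20, 5 were detected and 6 had no count in either library, and the 20 summed to 1297 ± 385 CPM (SD, n = 2), against 1151 ± 259 CPM for the 4 classic mirtrons. Mir3102, whose 5p seed is that of miR-702-5p, was the highest of the 23 intron-filling hairpins at 657 and 937 CPM in replicates 1 and 2. Mir7080, in an intron of the copine gene Cpne7, had 279 and 355 CPM, within the range of the classic mirtrons. Mir3547, in Baiap3, had 22.6 and 172 CPM, the largest fold between the libraries of the 5 (7.62-fold). Mir6944, in an intron of Dbn1, the gene of the dendritic spine protein drebrin, had 34.6 and 57.9 CPM. Mir1982, in Oaz1, the gene of ornithine decarboxylase antizyme, had 16.2 and 22.6 CPM. Of the 9 with at least 10 counts in all, 8 had a log2 ratio above 0 (median 0.51). So did 3 of the 4 classic mirtrons and 56.3% of all 522 tested genes. By the binomial test 5 of the 9 passed, all as higher in replicate 2, against 50.6% of the tested genes in either direction. RefSeq listed 17 5p arms for 16 of the 20 genes, of which 14 began with G, and the 15 listed 3p arms had a median of 73.9% pyrimidines. Over the whole numbered series, 11 of 196 genes (5.61%) were detected, against 13.7% of all miRNA genes. By the rule of 5 bases, only 15 genes of that series fill an annotated intron.

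**Figure D4:**
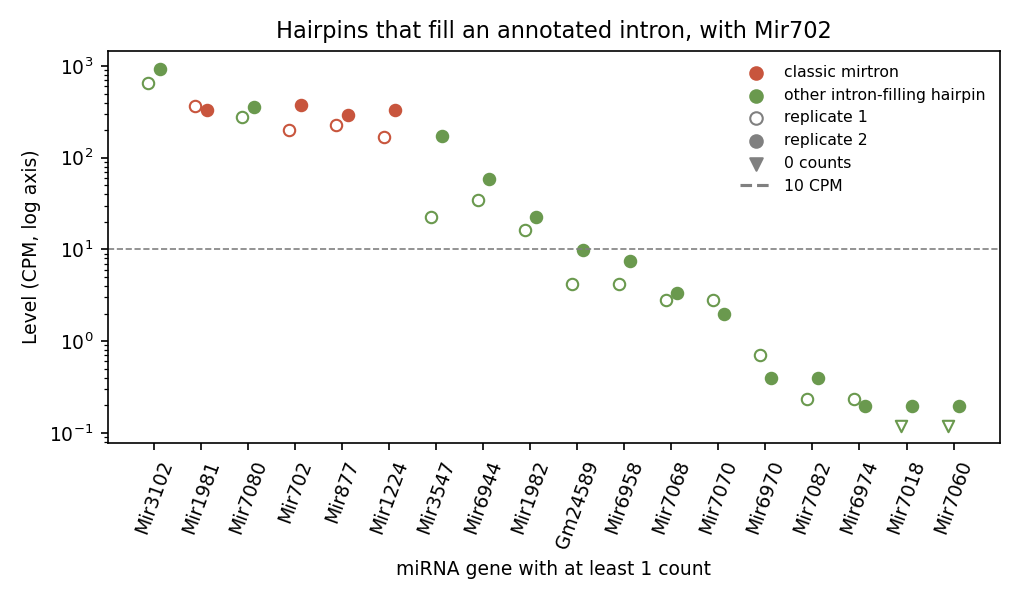
Levels in CPM (log axis) of the intron-filling hairpins with at least 1 count and of Mir702, with replicate 1 open, replicate 2 filled, triangles for 0 counts (drawn at an arbitrary low position) and a dashed line at 10 CPM. The 4 classic mirtrons (red) sit with Mir3102 and Mir7080 above 100 CPM in both libraries, Mir3547 does so in replicate 2 alone, and the other hairpins lie below.

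For comparison, miRNA genes that overlap small nucleolar or Cajal body RNA genes, and Mir451a, were set beside these levels. The overlap was taken from position alone, and neither the route of biogenesis nor the origin of the reads was tested. Of 24 miRNA genes that overlap a small nucleolar or small Cajal body RNA gene on the same strand, 7 were detected. Mir1839, which overlaps a Cajal body RNA gene annotated under the same name, led them at 1870 and 1750 CPM in replicates 1 and 2. These values were below both capped hairpins and above every classic mirtron. Mir1843b had 674 and 1087 CPM, and Mir1843a had 698 and 743 CPM. Mir664, which overlaps the snoRNA gene Snora36b, had 442 and 393 CPM, close above Mir1981. Mir3068, which overlaps a snoRNA gene annotated under the same name, had 91.4 and 75.4 CPM. Mir451a, the erythroid miRNA matured by Ago2 without Dicer, had 37 and 35 counts, or 8.71 and 6.94 CPM, below the minimum for detection in both libraries and below each of the 6 genes.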

How the data were processed

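Small RNA was measured by miRNA sequencing in 2 libraries of 1 group. The authors deposited raw read counts per annotated miRNA gene, not normalized, on mm10 with GENCODE M21 per the file headers. Neither the aligner nor the counting tool is given in the sources used here. Per the labels' protocols, the cited adapter-trimming document differs between the libraries. Of the 3 count columns, the one read from its sums as same-strand counts was used. The 4 summary rows entered no library size, and they held 61.8% of the reads in replicate 1 and 60.1% in replicate 2.

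CPM was computed over the reads counted on miRNA genes. Detected means 10 CPM or more in both libraries. The libraries were compared over 522 genes with at least 10 counts in all, by a fold of 1.5 and by an exact two-sided binomial test (the smaller tail doubled) with Benjamini-Hochberg adjustment at 0.05. With 1 library on each side, edgeR's quasi-likelihood test could not be fitted. For log2 ratios 0.5 was added to each count, and intervals are exact 95% binomial intervals (Clopper-Pearson) that cover counting error only. The procedure was tested on simulated data that held counting error only, so that test does not cover spread between the libraries beyond it. Hairpin ends were compared with 284419 distinct GENCODE M21 introns, and a hairpin with both ends within 5 bases of 1 intron's ends was taken to fill it. Sequences come from the RefSeq table of GRCm38.p6, the assembly that mm10 names, and were folded with ViennaRNA 2.7.2. Alternatives used TMM scaling (edgeR 4.0.16), size factors (DESeq2 1.42.0), other minimums and folds, the counts without regard to strand and 1 library at a time. Python 3.11.15, scipy 1.17.1 and R 4.3.3 were used.

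The 6 genes, the lists and the tests were chosen with earlier results of these data known. The genes named are the 6, the 2 genes next above and next below Mir320 and Mir484 in mean level, the 5 highest of the other intron-filling hairpins, the 5 highest of the miRNA genes that overlap a small nucleolar or Cajal body RNA gene, and Mir451a.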

Additional observations from a re-analysis of the deposited data

How the results depend on the processing

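All 6 genes were detected at minimums of 1 and 100 CPM, in each library alone and from the counts without regard to strand. Of 24 log2 ratios recomputed under another scaling or column, 23 kept their sign, and Mir484 turned to 0.0091 when scaled to all reads in the table. The number of genes 1.5-fold apart stayed at 2 under TMM, size factors, scaling to all reads and other added counts, and was 3 at the smaller fold tried and 0 at 2-fold. The summed level was 2486 ± 252 when scaled to all reads in place of counted reads, and 6822 ± 539 CPM from the counts without regard to strand, which gave these genes the same counts out of a smaller total. It was 6036 to 6674 CPM and the share of the capped hairpins 80.0 to 84.0% with either library left out. Of the 20 other intron-filling hairpins, 9 were detected at 1 CPM and 2 at 100 CPM, since the minimum sets the count. Mir702 counted as filling its intron within 10 bases, which made 4 of 4 mirtrons. With 2 libraries no spread within a condition beyond their difference could be had, and the counts do not show which arm was sequenced.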
